A study of Homo sapiens with 7 samples.

Results

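Heat shock proteins and their co-chaperones were examined in a transcriptome-wide map of m6A (N6-methyladenosine), a methyl mark found inside many messenger RNAs. Members were the table rows whose gene symbol begins with HSPA, HSPB, HSPD, HSPE, HSPH or HSP followed by a digit, with DNAJA, DNAJB or DNAJC, or with CCT2 to CCT8, together with the BAG genes 1 to 6 and HSF genes 1 to 4. This gave 100 transcripts of 98 symbols, out of 25918 transcripts of 24721 symbols in the table. DNAJB6 and HSPA14 had 2 rows each. The pattern also took in HSPBP1 and HSPBAP1, which bind heat shock proteins without belonging to those families, and copies such as HSP90AB3P and CCT6P1.

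The study had 1 condition, cells labelled HepG2 (a liver cancer line of human origin) with no heat or drug given, sampled as 4 libraries after precipitation with an anti-m6A antibody and 3 input libraries without antibody. The poly(A) RNA was fragmented to about 100 nt before precipitation. The deposited values were a single table over all libraries, so each transcript had 1 expression quantile (its rank from 0 to 1, not a level) and a list of peaks, each with its position along the transcript, exon, segment and the authors' score. There was no value per library, hence no depth, no replicate error and no test of immunoprecipitate against input. Liver markers did not follow the label: of 8 (AFP, ALB, APOA1, FGB, HNF4A, SERPINA1, TF and TTR), 4 were at the lowest quantile of the table (0.314) and the highest, FGB, was at 0.619.

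Chaperones bind unfolded or partly folded proteins and help them reach or keep their native state. HSP70 proteins do so in cycles of ATP hydrolysis. J proteins (the DNAJ families) bring them substrates and start hydrolysis, and BAG proteins and HSP110 proteins exchange the nucleotide. HSP90 acts later on signalling proteins, small heat shock proteins hold unfolded chains without ATP, and the CCT ring (also called TRiC) folds actin and tubulin in its cavity. HSF1 is the transcription factor that raises many of these genes on heat.

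The sequences under the peaks that the results turn on are given first, 5′ to 3′ on the transcript strand, 29 nt each, from GENCODE release 29 (GRCh38). Capitals mark the RRACH match nearest to the listed position. RRACH is the m6A consensus, where R is A or G and H is A, C or U (T in these DNA letters). The first set holds HSP70 and HSP110 genes, among them the highest-scoring peak of all members (HSPA13) and the paralogs HSPA4 and HSPA4L, each with a peak in the same exon next to the stop codon.
HSPA13: agtagtgacactGAACTgccaaaagacaa
HSPA12A: gaacaaaccacaGAACTtagagtgtgctg
HSPA4: ggatggacaaggAGACAacccaggccccc
HSPA1L: cctgggtggggaGGACTttgacaacaggc
HSPA4L: agagtggaactgAAACTaaatcagattca
These lay in GRCh38 at chr21:14374038-14374066 on the minus strand (HSPA13, coding part of exon 5), chr10:116672892-116672920 on the minus strand (HSPA12A, 3′ UTR, exon 12), chr5:133104331-133104359 on the plus strand (HSPA4, coding part of exon 19), chr6:31811258-31811286 on the minus strand (HSPA1L, coding part of exon 2) and chr4:127832792-127832820 on the plus strand (HSPA4L, coding part of exon 19).

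The second set holds J proteins with high scores or with a peak near the stop codon, and the co-chaperone BAG3.
DNAJB9: gcaagcactgcaGGACTgtcactcaacga
DNAJC11: cagccccactggGAACCagactgcagcct
DNAJB1: aggactgaccagGGACCtttccagagctc
DNAJA1: agtagaactggtGGACTttgatccaaatc
DNAJA2: agcagccatcatGGACCtggagtgcagtg
BAG3: cctggattcagtGGACCccgagggacgag
Their places were chr7:108573280-108573308, plus strand (DNAJB9, coding part of exon 3), chr1:6635453-6635481, minus strand (DNAJC11, 3′ UTR, exon 16), chr19:14515895-14515923, minus strand (DNAJB1, 3′ UTR, exon 3), chr9:33038789-33038817, plus strand (DNAJA1, coding part of exon 9), chr16:46957042-46957070, minus strand (DNAJA2, coding part of exon 9) and chr10:119676946-119676974, plus strand (BAG3, coding part of exon 4).

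The third set shows 2 peaks at the transcript start, centred on the listed position, chosen because no RRACH lay within 50 nt.
CCT3: gccggttcccccagctctgggtacccggc
HSPA4L: cctctgctccttccgcgggtttccgactc
Both are 5′ UTR in exon 1, at chr1:156338201-156338229 on the minus strand (CCT3) and chr4:127782374-127782402 on the plus strand (HSPA4L).

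Peaks were listed in 50 of the 100 chaperone transcripts (50%, 95% Wilson interval 40.4 to 59.6%), against 27.9% of all transcripts and 35.0% of coding ones. Of the members above the lowest expression quantile 54.3% (50 of 92) had a peak, against 40.7% of all such transcripts. The members were also highly placed in expression, with a median quantile of 0.717 against 0.500 for the whole table, and peaks in the table became more frequent with expression up to a quantile of 0.9. Among coding transcripts above a quantile of 0.9, 18 of 25 members had a peak (72.0%, 52.4 to 85.7%) against 69.3% of all. Between 0.8 and 0.9 it was 14 of 18 (77.8%) against 71.5%, and between 0.7 and 0.8 it was 5 of 9 (55.6%) against 65.1%. Further down, 7 of 12 had a peak between 0.6 and 0.7 (background 52.1%), 5 of 13 between 0.5 and 0.6 (28.4%), and 1 of 11, HSPA1L, between the lowest quantile and 0.5 (2.09%). In each of these 6 bins the interval of the chaperone share held the value of all coding transcripts, so at matched expression no difference in the frequency of peaks was detectable with these numbers. Intervals cover counting error only, and genes are not replicates.

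**Figure D1:**
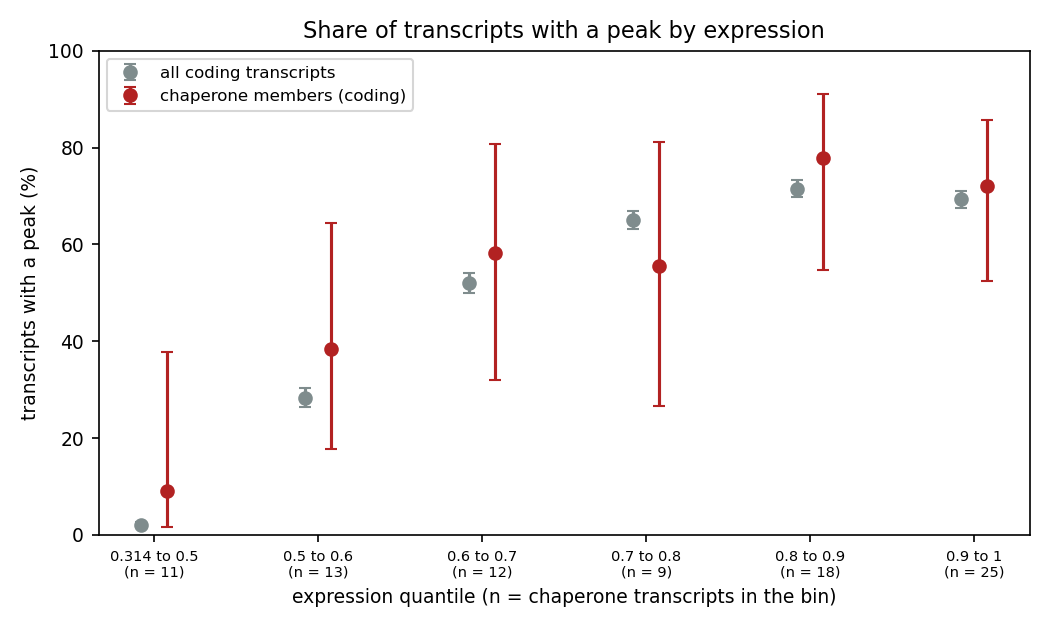
Share of coding transcripts with at least 1 listed peak (vertical axis, %) by bin of expression quantile (horizontal axis), for all coding transcripts (grey) and chaperone members (red); bars are 95% Wilson intervals. The red intervals hold the grey value in all 6 bins, from 9.09% against 2.09% in the lowest to 72.0% against 69.3% in the highest.

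The 50 marked transcripts carried 74 peaks, 1.48 per marked transcript against 1.76 for all. There were 34 with 1 peak, 10 with 2, 5 with 3 and 1 with 5, and 32.0% had 2 or more (background 44.1%). Scores of the members ran from 2.04 to 6.04 with a median of 2.95 (95% binomial interval of the median 2.82 to 3.09), below the 3.15 of all peaks. Scores in the table fell with expression, and by bin from the lowest quantile up the members' medians were 4.17 (1 peak), 2.95, 3.57, 3.01, 2.85 and 2.77, against 3.76, 3.47, 3.28, 3.19, 3.09 and 2.99 for all coding transcripts. The members were thus lower in 4 of these 6 bins and higher in 2. The score has no stated scale and was used to rank peaks only.

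HSP70 and HSP110 proteins held 10 marked transcripts of 16 (62.5%, 38.6 to 81.5%), against 27.9% of all transcripts. The family's median quantile was 0.720, and between 0.7 and 0.8 65.1% of all coding transcripts had a peak. Its rows ran from 0.404 to 0.990, so the bin at the median is a rough background and not a match. The same limit holds for the bins given for the families and lists below. The 12 HSP70 and HSP110 peaks outside the transcript start all lay in exons of at least 400 nt, as did 93.7% of all such peaks in coding transcripts. HSPA13, an HSP70 of the endoplasmic reticulum and microsomes, had the highest score of any member, 6.04, for 1 peak in the coding sequence of the 3169 nt exon 5 at a modest expression quantile of 0.611. Only 0.987% of all 12769 peaks in the table scored as high or higher. HSPA12A, a distant HSP70 relative, had the most peaks of any member, 5 at a quantile of 0.620. It had 1 at the transcript start (3.09) and 4 in the 4227 nt exon 12, 1 of them coding (3.18), 1 around the stop codon (3.83) and 2 in the 3′ UTR (4.46 and 4.17). HSPA1L, a testis-type HSP70, scored 4.17 in its coding sequence at a quantile of 0.496. It was the least expressed marked member. How the authors placed reads that also fit other HSP70 genes is not known here. HSPA1A and HSPA1B stood higher in expression, at 0.865 and 0.832, and whether such reads contributed to the HSPA1L peak was not tested.

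HSPA4 and HSPA4L, HSP110-type exchange factors of the same family, had the same arrangement of 2 peaks each. In HSPA4 (quantile 0.892) there was a start peak at position 95 (2.47) and a stop codon peak in exon 19 (4.38), 82 nt upstream of the stop codon. In HSPA4L (quantile 0.690) the start peak was at position 91 (3.14) and the peak in exon 19 (2.69) lay 58 nt upstream of the stop codon. The stop codon peak scored higher than the start peak in HSPA4 and lower in HSPA4L. Their RRACH matches nearest to the stop codon peak differed, AGACA in HSPA4 and AAACU in HSPA4L, as shown in the first set of sequences. HSPH1, the HSP110 gene of the heat shock response, had no peak at a quantile of 0.751.

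The other HSP70 genes had no score above 3.27. HSPA8, the constitutive cytosolic HSP70, was at a quantile of 0.990 and had 1 peak near the lower limit of the scores (2.16, coding sequence of exon 5). HSPA9, the mitochondrial HSP70, was at 0.970 with a start peak only (2.91). HSPA5 (BiP), the HSP70 of the endoplasmic reticulum, had none at 0.952. HSPA1A and HSPA1B, the heat-inducible pair, were listed with different peaks, around the stop codon at position 2015 in HSPA1A (2.73, quantile 0.865) and at the transcript start at position 91 in HSPA1B (3.27, quantile 0.832). The coding sequences of this pair differ at 4 of 1926 nt (99.8% identity), and how the authors placed reads that fit both is not given in the sources used here, so the assignment of these peaks to 1 copy or the other is uncertain. HSPA14, a ribosome-associated HSP70, had 2 coding sequence peaks (2.28 and 2.89) on its row at 0.750 and none on its row at 0.649. HSPA2, HSPA6 and HSPA12B had none, at quantiles of 0.568, 0.404 and 0.482.

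In the HSP90 family 1 of 7 transcripts was marked (14.3%, 2.57 to 51.3%), against 27.9% of all transcripts. The family's median quantile was 0.876, and between 0.8 and 0.9 71.5% of all coding transcripts had a peak. That bin does not match the whole family. HSP90Bd was at 0.437, and up to a quantile of 0.5 only 2.09% of all coding transcripts had a peak. HSP90B3P and HSP90Bb are noncoding rows. No share matched row by row was computed, so a lower frequency of peaks in this family was not shown. HSP90B1 (GRP94, the HSP90 of the endoplasmic reticulum) was at a quantile of 0.976 and had a start peak at position 73 (3.52). The cytosolic HSP90AB1 and HSP90AA1 had no peak at 0.994 and 0.953. HSP90AB1 was the most expressed member without one. The other 4 rows of the family (HSP90AB3P, HSP90B3P, HSP90Bb and HSP90Bd) are copies of these genes, were at 0.876, 0.524, 0.598 and 0.437, and had no peak. How reads shared with the parent genes were counted is not known here.

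Small heat shock proteins had a peak in 2 of 8 cases (25.0%, 7.15 to 59.1%). Their median quantile was 0.582, and between 0.5 and 0.6 28.4% of all coding transcripts had a peak. HSPB1 (HSP27) was among the most expressed members, at 0.995, with a single start peak of low score (2.11). HSPB8, which works with BAG3 in clearing misfolded proteins, had a coding sequence peak (2.77) at 0.602. HSPB11 and HSPB7 were the most expressed without a peak (0.751 and 0.672), HSPB6 and HSPB9 had none at 0.561 and 0.440, and HSPB2 and HSPB3 were at the lowest quantile.

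Start peaks made up most peaks of the CCT ring. Of the 7 expressed ring subunits in the symbol rule, CCT2 (4.67), CCT3 (2.77), CCT5 (2.90), CCT6A (2.73), CCT7 (2.52) and CCT8 (3.05) had a peak at the transcript start, and CCT4 had none at a quantile of 0.952. These 6 start peaks lay in exon 1, at positions 92, 190, 193, 150, 81 and 92. CCT3 alone had a further peak, around the stop codon (2.63), so that 6 of the 7 CCT peaks (85.7%, 48.7 to 97.4%) were start peaks, against 23.1% of all coding peaks above a quantile of 0.9. Subunit 1 of the ring is TCP1, which the symbol rule leaves out. It too had only a start peak (2.74, position 163, quantile 0.892), which makes 7 of 8 ring subunits with a start peak. All 2531 coding transcripts above a quantile of 0.9 together had 697 start peaks. All 8 ring subunits were highly expressed, at 0.892 to 0.997. The other CCT rows (the testis subunit CCT6B, the related CCT8L1 and CCT8L2, and the pseudogene CCT6P1) had no peak, at quantiles of 0.314, 0.395, 0.314 and 0.625. HSPD1 (HSP60), the chaperonin of mitochondria, resembled the ring subunits with a start peak at position 119 (3.58, quantile 0.937). Its lid HSPE1 had no peak at 0.866.

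Of 46 DNAJ transcripts 22 had peaks (47.8%, 34.1 to 61.9%), against 27.9% of all transcripts. The DNAJ median quantile was 0.687, and between 0.6 and 0.7 52.1% of all coding transcripts had a peak. Of the 31 DNAJ peaks 19 (61.3%, 43.8 to 76.3%) lay around the stop codon or in the 3′ UTR. The value for all peaks, 48.1%, lies inside that interval, so the J proteins as a whole were not set apart by it. All 4 DNAJA genes, the type I J proteins, had exactly 1 peak there. DNAJA1 (3.02), DNAJA2 (2.82) and DNAJA4 (3.01) had it around the stop codon, 77, 22 and 25 nt upstream of it, and DNAJA3, the mitochondrial member, had it in the 3′ UTR 256 nt downstream (3.77). Their quantiles were 0.939, 0.828, 0.720 and 0.953. In DNAJA1 the peak was in an exon of 380 nt, and in the other DNAJA genes in exons of 1229 to 1950 nt.

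Of 14 DNAJB transcripts 6 had peaks (42.9%, 21.4 to 67.4%), none at the transcript start. Their median quantile was 0.5085, and between 0.5 and 0.6 28.4% of all coding transcripts had a peak. DNAJB9 (ERdj4), a J protein of the endoplasmic reticulum made in the unfolded protein response, scored 5.50 around the stop codon, the second highest of all members, at a low quantile of 0.548. DNAJB1 (HSP40), the main heat-inducible J protein, had a peak 34 nt downstream of the stop codon (3.77) and a weak one in the coding sequence (2.09), at a quantile of 0.946. DNAJB6, which restrains protein aggregation, had a stop codon peak (3.36) on its coding row at 0.822 and none on its noncoding row at 0.465. DNAJB2 had a stop codon peak of low score (2.20), DNAJB4 a coding sequence peak (2.95), and DNAJB12 3 peaks in the 3102 nt exon 8 from the stop codon on (2.75, 2.89 and 2.04). DNAJB11 (ERdj3) was the most expressed without a peak (0.896), followed by DNAJB14 at 0.512.

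The 28 DNAJC transcripts, a mixed class joined by the J domain alone, had peaks in 12 cases (42.9%, 26.5 to 60.9%) and in 4 of the 5 segments. Their median quantile was 0.687, and between 0.6 and 0.7 52.1% of all coding transcripts had a peak. DNAJC14 scored highest (4.95, coding sequence) and had a start peak too (3.89), DNAJC16 had 4.89 in the coding sequence and 3.61 in the 3′ UTR of the 3956 nt exon 15, and DNAJC11, a mitochondrial protein of the cristae, had 3 peaks in its 3′ UTR that fell in score with distance from the stop codon (4.72, 3.07 and 2.76 at 211, 569 and 1045 nt). DNAJC21, a ribosome biogenesis factor, was marked 2 nt upstream of the stop codon (3.57). DNAJC3 (P58IPK), an inhibitor of stress-activated kinases in the endoplasmic reticulum, was also marked around the stop codon (3.57). DNAJC2, the ribosome-bound partner of HSPA14, had only a start peak (3.15), as did the nuclear splicing-related DNAJC8 (2.95) and DNAJC17 (2.60). DNAJC30 had a start and a stop codon peak (2.87 and 3.09), DNAJC25 2 coding sequence peaks (2.95 and 2.82), DNAJC15 1 (2.80) and DNAJC5 1 in the 3′ UTR (2.63). DNAJC7, which links HSP70 to HSP90, and DNAJC9, a histone co-chaperone, had none at quantiles of 0.933 and 0.909.

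BAG genes had peaks in 3 of 5 cases. BAG5 had 3 in the coding sequence of the 4641 nt exon 2 (4.02, 3.88 and 3.84). BAG3, an exchange factor raised by HSF1, had 3 peaks of low score, at the start (2.24), in the coding sequence (2.66) and around the stop codon (2.53). BAG2 had a stop codon peak (2.47). BAG1 and BAG4 had none, at quantiles of 0.967 and 0.692. Of the transcription factors, HSF1 was at 0.978 with a start peak (2.30) and a 3′ UTR peak (2.82). HSF2 was at 0.556 with a stop codon peak near the lower limit (2.04). HSF4, at 0.857, had 3 peaks in the inner 5′ UTR (4.24, 2.58 and 2.22), a segment that held only 2.78% of all peaks and no peak of any other member. Of the binding proteins, HSPBAP1 had a coding sequence peak (3.90) and HSPBP1, an exchange factor for HSP70, a start peak (2.46).

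**Figure D2:**
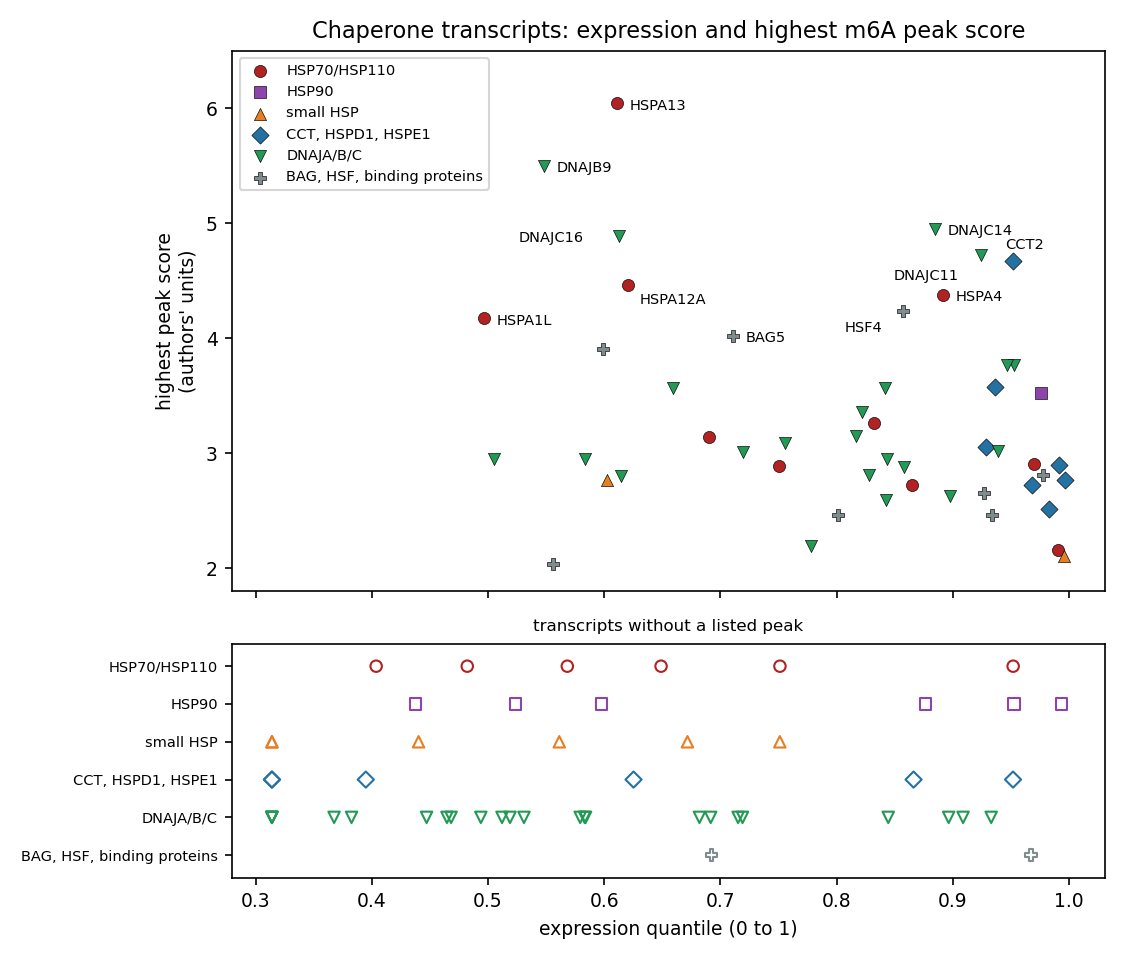
Highest peak score of each marked chaperone transcript (upper panel, vertical axis, authors' units) against its expression quantile (horizontal axis), by family; the lower panel places the 50 transcripts without a listed peak on the same axis. HSPA13 (6.04) and DNAJB9 (5.50) stand highest at quantiles of 0.611 and 0.548. In the upper panel the blue diamonds of marked CCT subunits and HSPD1 all lie above 0.9.

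By segment, 22 of the 74 chaperone peaks were at the transcript start (29.7%, 20.5 to 40.9%), against 12.5% of all peaks with a segment. The stop codon held 19 (25.7%, 17.1 to 36.7%, background 27.6%), the coding sequence 19 (25.7%, background 36.6%), the 3′ UTR 11 (14.9%, background 20.5%) and the inner 5′ UTR 3 (4.05%). The start segment is under 200 nt from the 5′ end and the stop codon segment within 200 nt of the stop codon. Start peaks also became more frequent with expression in the table as a whole. Above a quantile of 0.9 they were 13 of 25 chaperone peaks (52.0%, 33.5 to 70.0%) against 23.1% of all coding peaks there. Without the CCT subunits they were 7 of 18 (38.9%, 20.3 to 61.4%), an interval that holds 23.1%. In the same range of expression 6 of 7 CCT peaks and 0 of 7 J protein peaks were start peaks. These 7 J protein peaks came from 4 transcripts, and 3 of them from DNAJC11. At all levels of expression 5 of 31 J protein peaks were start peaks (16.1%, 7.09 to 32.6%), all in DNAJC transcripts, against 12.5% of all peaks. No test of the difference between families was made. Median scores of the members by segment were 2.90 at the start (2.73 for all peaks there), 2.95 in the coding sequence (3.14), 3.01 around the stop codon (3.45) and 3.07 in the 3′ UTR (3.22), so start peaks were the only ones of these 4 kinds in which the members' median was above that of all.

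**Figure D3:**
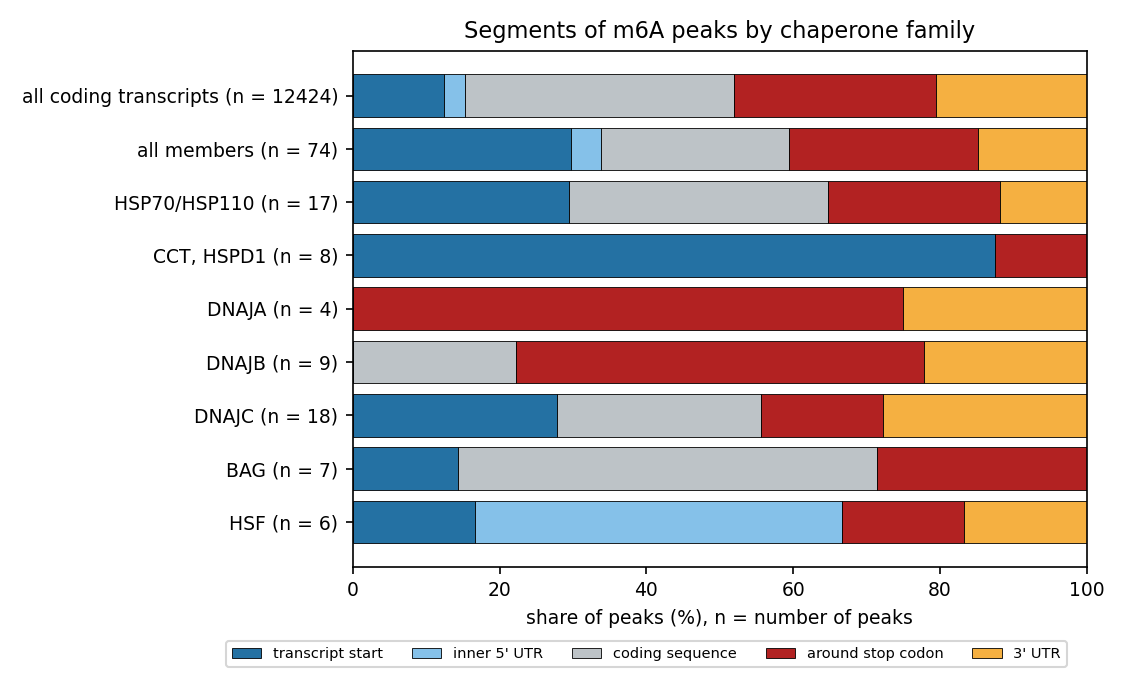
Share of peaks (horizontal axis, %) in each segment for all coding transcripts, all chaperone members and the families with at least 4 peaks; n is the number of peaks in the bar. Start peaks make up 87.5% of the peaks of CCT subunits and HSPD1 and 0 of those of DNAJA and DNAJB, where the stop codon holds 75.0% and 55.6%.

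The 14 transcripts with start peaks alone had quantiles from 0.817 to 0.995 (median 0.944) and top scores with a median of 2.93. The 8 with a start peak and another had a median quantile of 0.888, and the 28 without a start peak 0.764, from 0.496 to 0.990. In coding transcripts as a whole the corresponding medians were 0.888, 0.886 and 0.778. Start-only transcripts made up 28.0% of marked members and 12.1% of marked coding transcripts. Of the 52 peaks elsewhere, 47 (90.4%) lay in exons of at least 400 nt, near the 93.7% of all such peaks in coding transcripts. The 5 in shorter exons were those of CCT3 (343 nt), DNAJA1 (380 nt), DNAJC3 (158 nt), DNAJC25 (392 nt) and HSF4 (126 nt).

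**Figure D4:**
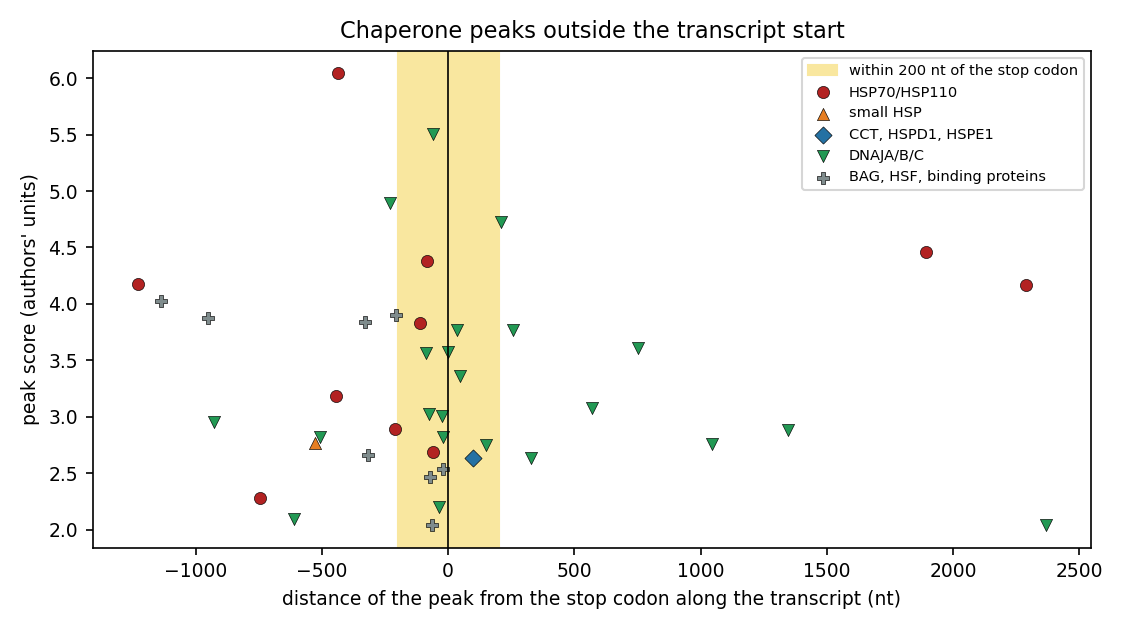
Score (vertical axis, authors' units) of the 42 chaperone peaks outside the transcript start that could be placed on a GENCODE transcript, against their distance from the stop codon (horizontal axis, nt, negative upstream); the shaded band is within 200 nt. J proteins (green) lie on both sides of the band and in it, HSPA13 scores 6.04 at 435 nt upstream, and HSPA12A has the 2 red points at 1892 and 2288 nt downstream.

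Of the 74 peaks, 59 on 40 transcripts could be placed on a GENCODE transcript, and 51 of these (86.4%, 75.5 to 93.0%) had RRACH within 50 nt on the transcript strand, against 89.4% of all placed peaks in the table. RRACH is common, and 73.3% of all 101 nt windows tiled along these 40 transcripts held it (73.5% over all placed transcripts). Outside the transcript start 40 of 42 chaperone peaks had it (95.2%, 84.2 to 98.7%), and at the start 11 of 17 (64.7%, 41.3 to 82.7%, background 62.1%). The first group had a background of 93.6%, and within it RRACH was near 15 of 15 coding sequence peaks (background 93.3%), 16 of 17 stop codon peaks (94.6%) and 9 of 10 3′ UTR peaks (93.8%). The start peaks without it were those of CCT3, CCT7, HSPA4L, HSPA9, HSPB1 and HSPD1. The 2 others were the stop codon peak of DNAJA4 and the 3′ UTR peak of DNAJC16. These counts describe the letters near the peaks and not methylated sites.

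The nearest RRACH was within 10 nt of the listed position for 24 of the 51 peaks and within 20 nt for 36. It was most often GGACU (10 peaks), then GAACU and GGACC (8 each). In HSPA13 the nearest match was GAACU, whose central A lay 2 nt downstream of the listed position, among 6 RRACH matches in the window, the most of any member. In DNAJB9 it was GGACU 3 nt downstream, in HSPA1L GGACU 5 nt downstream, and in DNAJB1 GGACC 1 nt upstream, as printed in the first and second sets of sequences. GGACU anywhere within 50 nt was found near 15 of 59 chaperone peaks (25.4%, background 28.0%).

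By place in the cell, 4 of 8 chaperones of the endoplasmic reticulum had a peak (HSPA13, DNAJB9, DNAJC3 and HSP90B1, but not HSPA5, DNAJB11, DNAJC1 or DNAJC10). Their median quantile was 0.717, and between 0.7 and 0.8 65.1% of all coding transcripts had a peak. The median score of these 4 peaks was 4.53, against 3.15 for all peaks. That comparison is not at equal expression. DNAJB9 was at 0.548, where all coding peaks between 0.5 and 0.6 had a median of 3.47. HSPA13 and DNAJC3 were at 0.611 and 0.659, with 3.28 between 0.6 and 0.7, and HSP90B1 was at 0.976, with 2.99 above 0.9. The 4 peaks also include those of HSPA13 and DNAJB9, the highest-scoring of all members. Of 8 mitochondrial chaperones 6 had a peak and DNAJC19 and HSPE1 did not, at a median quantile of 0.895, where the share of all coding transcripts between 0.8 and 0.9 was 71.5%. Their 9 peaks had a median score of 3.07. With 8 genes each, the lists are too small to set these shares apart from those at like expression. Both lists were chosen here and may not hold every member of either place. The shares and median scores describe these lists only. Of 14 genes listed here as heat-inducible targets of HSF1, 10 had a peak (71.4%). The list counts HSPA8, the constitutive HSP70, and leaves out HSPA6 (no peak at 0.404), so the share describes this list only. It was near the 69.3% of all coding transcripts above a quantile of 0.9, where the median of the 14 genes (0.932) lay. The 14 peaks of these genes had a median score of 2.71 (2.99 for all peaks above 0.9). Of the marked genes HSPA1L (0.496), HSPA4L (0.690), HSPA1B (0.832) and HSPA1A (0.865) lay below 0.9, so this comparison is not at equal expression. The highest scores were those of HSPA1L (4.17, known mainly as a testis gene), DNAJB1 (3.77) and HSPD1 (3.58), while HSP90AA1, HSP90AB1, HSPE1 and HSPH1 had no peak.

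Other folding factors that the symbol rule leaves out had peaks in 29 of 43 genes (67.4%, background 29.1% of gene symbols). Their median quantile was high, 0.908, and of all coding transcripts above 0.9 69.3% had a peak, so the share was near that at the list's median expression. The list reached down to the lowest quantile, with CRYAA and CRYAB at 0.314 and without a peak. The highest scores were those of TTC4, GRPEL2 and CALR. TTC4, an HSP90 co-chaperone, had 5.76 (3′ UTR). GRPEL2, an exchange factor of mitochondrial HSP70, had 5.60 (stop codon), while GRPEL1 had no peak at a quantile of 0.770. CALR, the lectin chaperone calreticulin, had 5.15 (stop codon, quantile 0.997). PFDN5, a prefoldin subunit, was the most expressed without a peak (0.992). Of their 44 peaks 16 were start peaks, 10 lay in the 3′ UTR, 14 around the stop codon and 4 in the coding sequence. Start peaks were 12.5% of all peaks with a segment and 23.1% of coding peaks above a quantile of 0.9. A high share of start peaks was thus not particular to the members.

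The 50 members without a peak fell into 8 transcripts at the lowest quantile (CCT6B, CCT8L2, DNAJB3, DNAJB13, DNAJC5B, DNAJC5G, HSPB2 and HSPB3), 4 noncoding rows and expressed coding ones. Of the last, 10 were at or below a quantile of 0.5 and 8 between 0.5 and 0.6, where 2.09% and 28.4% of all coding transcripts had peaks. The 7 above 0.9 were HSP90AB1, BAG1, HSP90AA1, HSPA5, CCT4, DNAJC7 and DNAJC9. They included the 2 cytosolic HSP90 genes and 1 ring subunit of CCT. A transcript without a listed peak may still hold m6A below the authors' limits.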

How the data were processed

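The members and lists were chosen with earlier results of these data known. The authors deposited 1 table for the 7 libraries. Per the file headers, it holds an expression quantile, which is a fraction from 0 to 1, and a count of peaks per transcript and, for each peak, where it lies and its score. Which aligner, peak caller and build were used is not given in the sources used here. No listed position was under 51 and no score under 2.00, so peaks very near the 5′ end, or below the authors' limit, are not seen, and reads shared by near-identical genes may be misplaced.

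Rows with peaks were placed on GENCODE 29 transcripts of the same symbol, chromosome and strand, without the table's coordinates. Internal exons with peaks had to match in number and length. The shift of the 5′ end came from the listed length of exon 1, or from the genomic span and the listed length of the last exon (at most 400 nt). Where exon 1 alone fixed the place, the 3′ ends could differ by at most 500 nt. Every peak had to fall in the authors' segment. Of 745 rows with peaks in both end exons, both gave 1 shift in 638 (85.6%). On simulated transcripts the base was right for 134 of 145 rows placed by the last exon and 154 of 155 by exon 1. These had 1 peak each, no segment check, and shifts of the 5′ end much smaller than 400 nt. Among the printed peaks, the shifts of DNAJB9 (-344 nt), HSPA4L (-158 nt), DNAJC11 (-111 nt), DNAJA2 (-75 nt) and CCT3 (-61 nt) lay outside the simulated range. The simulated accuracy does not cover those placements. Of 50 marked chaperone rows 40 were placed, 12 of them by exon 1 alone, and 10 were not.

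Shares have 95% Wilson intervals (SciPy 1.17.1, pandas 2.3.3), and no test was run. Named genes are all HSF, CCT and BAG members, 13 central heat shock genes, and within each family the 4 highest scores, the most peaks and the 2 most expressed without a peak, with up to 3 scores and 1 unmarked gene per further list. Others were named after their values were seen. The alternatives were stricter scores, 1 row or peak per gene, expression limits, and other motif windows.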

Additional observations from a re-analysis of the deposited data

How the results depend on the processing

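Of 19 alternatives, 12 moved a value by less than its interval and 7 by more. The share of chaperone transcripts with a peak (50%) was 26.0% with scores of at least 3 and 11.0% with scores of at least 4, where all transcripts gave 19.3% and 10.0%. Start peaks (29.7% of chaperone peaks) were 8.33% with scores of at least 4 (n = 12 peaks, 3.29% for all) and 52.0% above an expression quantile of 0.9 (23.1% for all). Stop codon peaks (25.7%) were 16.7% and 16.0% under the same limits, against 37.0% and 27.9% for all. RRACH was found near 96.6% of placed peaks within 100 nt, as for all placed peaks (96.6%). Chosen after seeing the data, leaving out the CCT subunits gave 23.9% start peaks, and leaving out rows placed by exon 1 alone gave 91.5% with RRACH. No paired analysis was possible because the table holds no value per library; for the same reason no replicate could be left out. Depth is unknown, so the absence of a peak does not show that a message lacks m6A.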
